A study of Homo sapiens with 6 samples.

Results

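To describe the growth factor system of melanoma cells depleted of IκBζ, the genes of the EGF receptor family and of its ligands were examined in bulk RNA-seq of LOX-IMVI cells, an established human melanoma cell line. The 9 genes were chosen by name from the 47432 genes of each table. They comprise 6 ligands (EREG, HBEGF, NRG1, AREG, BTC and TGFA) and 3 receptors (EGFR, ERBB2 and ERBB3), and all 9 were listed in every library. The shCtrl cells had been transduced with a lentivirus for a control short hairpin RNA, and the shNFKBIZ cells with a lentivirus for a short hairpin RNA against NFKBIZ, the gene of the nuclear co-regulator IκBζ. After selection with puromycin, both groups were kept in RPMI-1640 medium with fetal calf serum and antibiotics, and no further stimulus is given in the labels. Each group had 3 libraries, numbered 1 to 3 and described as independent experiments, of the same line and with one hairpin construct per group. Values listed below follow that order.

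EGF family ligands are made as membrane-anchored precursors, which metalloproteases of the ADAM family cut to release the soluble factor. The released ligand brings receptors of the family together in pairs, whose kinase domains then phosphorylate each other and start the RAS-MAPK and PI3K pathways. EGFR binds epiregulin, HB-EGF, amphiregulin, betacellulin and TGF-α, while ERBB3 and ERBB4 bind the neuregulins. ERBB2 has no known ligand of its own and acts as a partner of the other receptors. In the melanocyte lineage, ERBB3 is a target of the lineage factor SOX10, whereas high EGFR levels are known from dedifferentiated, drug-tolerant melanoma.

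The libraries held 22264473 to 24624839 total exon reads, that is, reads assigned to the exons of a gene. Exon reads of NFKBIZ itself numbered 1519, 1629 and 1674 in the shCtrl libraries and 474, 477 and 468 after knockdown (log2 fold change, log2FC below, -1.78). Of 13843 genes that passed a filter on low counts, 1241 (8.96%) were past the threshold of an adjusted P of at most 0.05 and a 2-fold change, and 65.3% had an adjusted P of at most 0.05 at any fold change (edgeR quasi-likelihood test, two-sided). Of 9 melanocyte lineage markers, 7 stayed under 1 TPM (reads per exon length, scaled to the same total in each library) in every library, with SOX10, MLANA and S100B at 0 reads throughout. The summed level of these 9 markers was 20.8 to 21.99 TPM in shCtrl and 10.4 to 12.3 TPM in shNFKBIZ cells, nearly all of it PAX3 and MITF. Of 8 markers of dedifferentiated melanoma, 6 were tested and all 6 differed on P (4 higher, 2 lower). The summed level of all 8 was 2663 to 2839 and 2379 to 2427 TPM, and NGFR and NES stayed under 1 TPM.

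The family was dominated by one ligand and one receptor. EREG supplied 71.8% to 77.1% of the summed TPM of the 6 ligands in a library, and EGFR supplied 99.3% to 99.8% of the summed TPM of the 3 receptors. HBEGF followed at 16.2 to 21.7 TPM over the 6 libraries and NRG1 at 14.6 to 16.1 TPM, neighbouring levels whose order was not tested. The shares and the order of the ligands depend on the exon length that TPM divides by. This length is 21389 bases for NRG1, 5713 for EREG and 2990 for HBEGF. In exon reads summed over the shCtrl libraries, NRG1 (5963) lay above HBEGF (1021) and below EREG (9860). The remaining 5 genes (AREG, BTC, TGFA, ERBB2 and ERBB3) did not exceed 0.392 TPM in any library. Only EREG, HBEGF, NRG1 and EGFR passed the filter on low counts, so that 5 of the 9 genes were not tested.

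**Figure D1:**
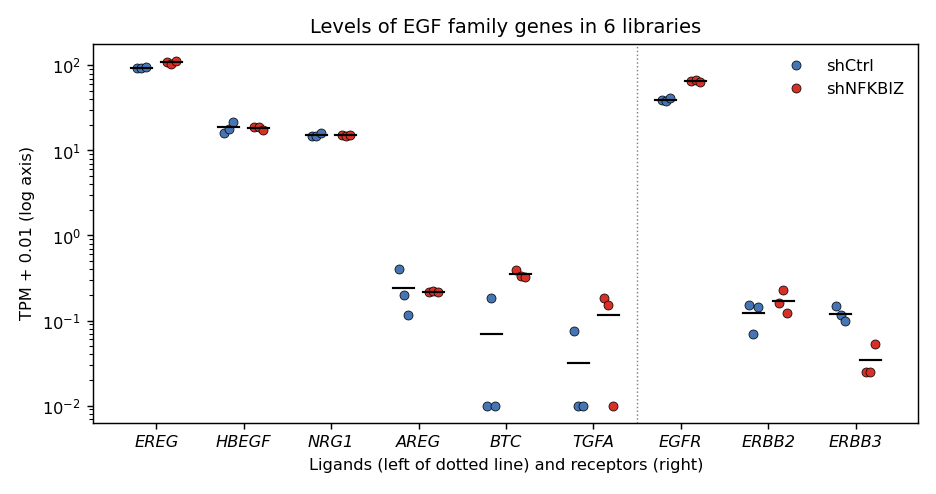
Level of each gene in each library, as TPM + 0.01 on a log axis, for 6 ligands and 3 receptors in 3 shCtrl and 3 shNFKBIZ libraries (points, with the group mean as a line). EREG and EGFR lie highest, HBEGF and NRG1 lie between 14.6 and 21.7 TPM, and the other 5 genes lie at or below 0.392 TPM.

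Of the 4 genes tested, 0 were past the 2-fold threshold, where 8.96% of all genes tested were (3.84% higher and 5.12% lower). Without the fold limit, 2 of the 4 (EGFR and EREG) were called on P alone, where 65.3% of all genes tested were, so the share of called genes was no larger than in the background. Both were higher in shNFKBIZ cells, as were 32.5% of all genes tested. By role, 1 of 3 tested ligands and 1 of 1 tested receptor were called. The median log2FC of the tested ligands was -0.09, that of the single tested receptor 0.66, and that of all genes 0.00.

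The sequences before the annotated starts are shown for EGFR and EREG, which changed, for AREG, which lies next to EREG but had few reads, and for HBEGF, whose intron and exon reads went apart. They are the 250 bases before the start from RefSeq (GRCh38.p14), 5′ to 3′ on the strand of the gene. Capitals mark matches on either strand to an AP-1 site (TGANTCA), a cyclic AMP response element (TGACGTCA), a GC box (GGGCGG) or a TATA box (TATAAA).
EREG, chr4:74364895-74365144, plus strand: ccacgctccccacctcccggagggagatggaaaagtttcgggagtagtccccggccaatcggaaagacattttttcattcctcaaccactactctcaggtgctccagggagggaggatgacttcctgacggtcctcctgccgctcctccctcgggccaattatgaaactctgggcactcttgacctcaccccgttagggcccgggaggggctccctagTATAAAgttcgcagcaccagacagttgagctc
AREG, chr4:74444886-74445135, plus strand: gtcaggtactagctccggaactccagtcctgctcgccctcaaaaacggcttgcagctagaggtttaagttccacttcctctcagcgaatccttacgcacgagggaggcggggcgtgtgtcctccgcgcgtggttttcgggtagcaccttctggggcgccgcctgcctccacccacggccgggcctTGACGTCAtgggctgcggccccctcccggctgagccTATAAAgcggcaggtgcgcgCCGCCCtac
EGFR, chr7:55018767-55019016, plus strand: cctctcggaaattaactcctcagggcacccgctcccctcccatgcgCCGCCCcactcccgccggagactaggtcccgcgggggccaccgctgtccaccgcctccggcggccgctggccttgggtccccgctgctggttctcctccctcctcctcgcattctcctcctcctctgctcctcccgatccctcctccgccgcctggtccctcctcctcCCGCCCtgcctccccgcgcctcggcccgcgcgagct
EGFR, internal start, chr7:55109589-55109838, plus strand: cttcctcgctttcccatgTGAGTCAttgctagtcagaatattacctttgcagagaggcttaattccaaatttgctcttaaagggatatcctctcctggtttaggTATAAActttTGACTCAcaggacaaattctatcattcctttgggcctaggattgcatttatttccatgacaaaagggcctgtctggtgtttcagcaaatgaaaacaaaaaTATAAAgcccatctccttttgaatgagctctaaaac
HBEGF, chr5:140346604-140346853, minus strand: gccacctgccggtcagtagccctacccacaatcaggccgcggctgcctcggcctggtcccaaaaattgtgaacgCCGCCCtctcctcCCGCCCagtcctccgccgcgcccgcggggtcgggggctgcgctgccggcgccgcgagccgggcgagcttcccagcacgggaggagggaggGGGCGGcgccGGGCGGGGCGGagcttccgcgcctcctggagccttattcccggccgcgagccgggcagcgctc

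In these windows, which were extended by 50 bases past the start for the search, EREG and AREG each held a TATA box, at base -32 and base -29 from the start, and AREG also held a cyclic AMP response element at base -65 and 1 GC box. The first EGFR window held 3 GC boxes and no TATA box, while the window of the internal start held 2 AP-1 matches and 2 TATA boxes. HBEGF held 5 GC boxes, 2 of which share a base. Of 35116 RefSeq windows of the same length, 11.5% held a TATA box, 1.85% a cyclic AMP response element, 7.71% an AP-1 match and 45.0% a GC box. RefSeq windows were found for 7 of the 9 genes, 9 windows in all. The NF-κB consensus had a match in 1 of them, a window of TGFA (5.91% of all windows), and the STAT motif TTCNNNGAA in 0 (7.66% of all windows). A match describes these letters and does not show that a factor was bound.

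EGFR was the receptor with nearly all reads in these cells and the gene of the family with the largest change among those tested. EGFR (ENSG00000146648, chr7:55019017-55211628, plus strand, hg38) encodes the receptor tyrosine kinase that binds most ligands of the family. Exon reads numbered 3858, 3930 and 3822 in the shCtrl libraries and 6162, 6241 and 6123 in the shNFKBIZ libraries, or 38.9, 38.4 and 41.6 against 66.0, 68.1 and 64.6 TPM. Every shNFKBIZ library was above every shCtrl library, as in 68.7% of all genes tested the groups did not overlap in CPM. The mean level was 39.6 ± 1.72 TPM in shCtrl and 66.2 ± 1.76 TPM in shNFKBIZ cells (SD, n = 3). The log2FC was 0.66 (SE 0.0344, 95% interval 0.59 to 0.73, edgeR adjusted P 2.50e-13). This corresponds to a 1.58-fold increase and lies under the 2-fold threshold. Of all genes tested, 9.24% had a higher log2FC and 20.2% a larger absolute one. Scaling by library size alone, which moved the median log2FC of all genes to 0.09, gave 0.75 for EGFR. Reads that spanned an exon-exon junction numbered 648, 686 and 675 in shCtrl and 1049, 1077 and 996 in shNFKBIZ libraries (log2FC 0.67, SE 0.0534). The overlapping antisense gene EGFR-AS1 had 0 exon reads in all libraries. In bulk samples such as these, more cells with a transcript and more of it per cell cannot be told apart.

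EREG encodes epiregulin, a ligand of EGFR and ERBB4, and was slightly higher in shNFKBIZ cells. EREG (ENSG00000124882, chr4:74365145-74388749, plus strand) collected 3285, 3400 and 3175 exon reads in the control libraries and 3673, 3461 and 3810 in the knockdown libraries. Its level was 92.5, 92.6 and 96.4 TPM in shCtrl and 109.8, 105 and 112 TPM in shNFKBIZ libraries. The groups did not overlap in TPM or CPM, and in CPM the same was so for 68.7% of all genes tested. The mean was 93.8 ± 2.21 against 109.1 ± 3.44 TPM (SD, n = 3), and the log2FC was 0.14 (SE 0.0385, 95% interval 0.06 to 0.22, edgeR adjusted P 0.00376), or 1.10-fold. A larger absolute change was found in 74.4% of all genes tested. The size of this change moved with the reads counted and with the scaling, from 0.14 to 0.31 with exon-exon reads alone (226, 259 and 203 against 275, 270 and 288 reads) and to 0.23 with library size alone.

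HBEGF encodes heparin-binding EGF-like growth factor, the membrane precursor of which is also the receptor of diphtheria toxin. HBEGF (ENSG00000113070, chr5:140332843-140346603, minus strand) collected 302, 345 and 374 exon reads in the control libraries and 326, 324 and 311 in the knockdown libraries. The corresponding levels were 16.2, 18.0 and 21.7 against 18.6, 18.8 and 17.5 TPM, so that the shNFKBIZ libraries lay within the range of the shCtrl libraries. Means were 18.6 ± 2.78 and 18.3 ± 0.727 TPM (SD, n = 3). The log2FC of -0.10 (SE 0.0866, 95% interval -0.28 to 0.08, edgeR adjusted P 0.307) was within the error. The value rested in part on shCtrl library 3, without which the log2FC was 0.00.

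NRG1 encodes neuregulin 1, a ligand of ERBB3 and ERBB4. NRG1 (ENSG00000157168, chr8:31639222-32855666, plus strand) collected 1970, 2006 and 1987 exon reads in the control libraries and 1894, 1810 and 1952 in the knockdown libraries. Its level was 14.8, 14.6 and 16.1 TPM in shCtrl and 15.1, 14.7 and 15.3 TPM in shNFKBIZ libraries, and these ranges overlapped. In TMM-scaled CPM (85.6, 84.5 and 90.3 against 82.6, 78.1 and 83.8) they did not, as in 68.7% of all genes tested. The log2FC was -0.09 (SE 0.0426, 95% interval -0.18 to -0.00, adjusted P 0.0668, edgeR), which did not pass the threshold on P. It passed with a replicate block (adjusted P 0.0297, edgeR), with total gene reads (0.0391) and without shCtrl library 2 (0.0438), while scaling by library size alone left a log2FC of -0.00 (adjusted P 0.974, edgeR). TPM divides by the length of all annotated exons, which is 21389 bases for NRG1, so that its level is understated where cells use short isoforms.

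Intron reads, which come mostly from unspliced RNA, were compared with exon reads for the 4 tested genes. HBEGF differed between both kinds of reads, and EGFR, EREG and NRG1 did not differ by more than the error. For HBEGF, intron reads were 21, 29 and 30 in shCtrl and 54, 57 and 44 in shNFKBIZ libraries. They made up 6.50%, 7.75% and 7.43% of its gene reads in shCtrl and 14.2%, 15.0% and 12.4% in shNFKBIZ libraries, while over all genes this share was 7.16% to 7.46% and 7.63% to 8.15%. The log2FC of HBEGF intron reads was 0.86 (SE 0.202, 95% interval 0.45 to 1.27, adjusted P 0.000803, edgeR), or 1.82-fold, beside -0.10 for its exon reads. The difference between both changes was 0.95 (SE 0.210, adjusted P 0.000167, edgeR test of the interaction with a block per library). It was called under all 8 alternatives run, at 0.89 to 1.02. Of 11025 genes tested in this way 28.9% were called and 15.7% had the higher change in introns, so that 1 of 4 genes is near the background. HBEGF overlaps no other annotated gene, its exon-exon reads were 52, 68 and 63 against 64, 59 and 46, and whether unannotated exons hold some of its intron reads was not tested.

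The intron reads of EGFR rose like its exon reads. They were 398, 472 and 413 in shCtrl and 685, 733 and 733 in shNFKBIZ libraries (log2FC 0.66, SE 0.0653, edgeR adjusted P 1.77e-10), and the difference from exon reads was -0.02 (SE 0.0718, adjusted P 0.883). EGFR and HBEGF were thus 2 of 4 genes called on P in intron reads, where 38.8% of 12119 genes were, and 0 of 4 were past the 2-fold threshold there, where 6.6% were. For EREG, intron reads numbered 102, 72 and 70 against 80, 78 and 94 (log2FC -0.04, SE 0.150), and the difference from exon reads was -0.19 (SE 0.139, adjusted P 0.321, edgeR). For NRG1 the log2FC of intron reads was -0.16 (SE 0.0876) and the difference -0.08 (adjusted P 0.561, edgeR).

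**Figure D2:**
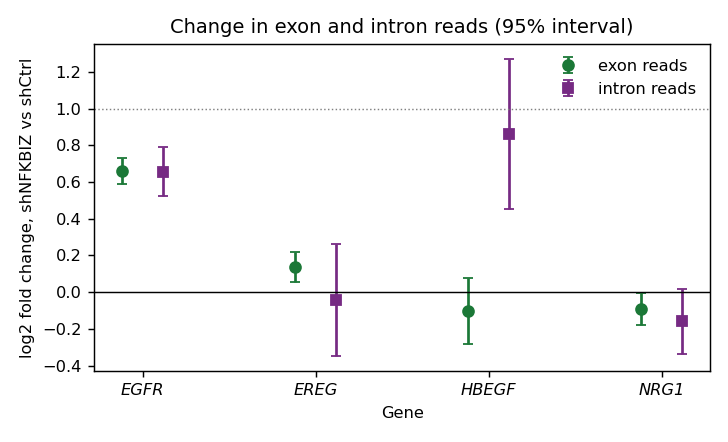
Log2 fold change (shNFKBIZ against shCtrl) of exon reads (circles) and intron reads (squares) of the 4 tested genes, with 95% intervals from edgeR and a dotted line at a 2-fold increase. The points of EGFR coincide at 0.66, while for HBEGF the intron value of 0.86 lies above the exon value of -0.10 with intervals that do not overlap.

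The balance of ligand to receptor transcripts was then followed within each library, as the ratio of the TPM of a ligand to that of EGFR. The ratio of EREG was 2.38, 2.41 and 2.32 in shCtrl and 1.66, 1.55 and 1.74 in shNFKBIZ libraries, 1.44-fold lower. HBEGF went from 0.417, 0.468 and 0.522 to 0.282, 0.277 and 0.271, 1.69-fold lower. NRG1, whose product does not bind EGFR itself, went from 0.381, 0.380 and 0.387 to 0.229, 0.216 and 0.238, 1.68-fold lower. The groups did not overlap in any of these 3 ratios, and the exact permutation test (two-sided) gave P = 0.1 for each, the smallest value that 3 against 3 libraries allow, and 0.1 after adjustment over the 3. All 3 ratios share the EGFR value of the library and are therefore not independent. Mean EGFR went from 39.6 to 66.2 TPM, while HBEGF (18.6 and 18.3 TPM) and NRG1 (15.2 and 15.1 TPM) stayed level. Mean EREG rose from 93.8 to 109.1 TPM. The lower ratios thus restate the higher EGFR level and add no separate result on the ligands. The summed TPM of the 6 ligands divided by that of the 3 receptors was 3.16, 3.26 and 3.21 in shCtrl and 2.18, 2.04 and 2.25 in shNFKBIZ libraries.

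**Figure D3:**
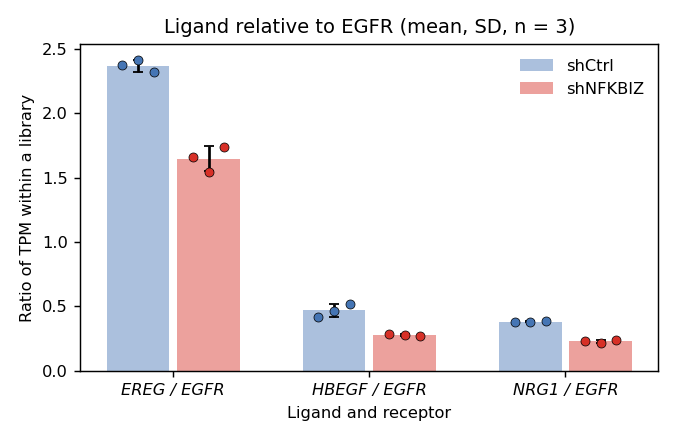
Ratio of the TPM of EREG, HBEGF and NRG1 to the TPM of EGFR within a library (bars, mean with SD, n = 3 per group; points, single libraries). In all 3 pairs the shNFKBIZ libraries lie below the shCtrl libraries, for EREG at 1.55 to 1.74 against 2.32 to 2.41.

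The other ligands were near the limit of detection, which was set at 3 reads per library. AREG (chr4:74445136-74455005, plus strand), the gene of amphiregulin, had 4, 2 and 1 exon reads in the control libraries and 2, 2 and 2 in the knockdown libraries, a depth-corrected ratio of 0.903 with an exact 95% interval from 0.251 to 3.14. TGFA (chr2:70447284-70554193, minus strand), the gene of TGF-α, had 2, 0 and 0 against 5, 4 and 0 reads, a ratio of 4.74 (0.982 to 45.1). No difference was detectable for AREG and TGFA at this depth. BTC (chr4:74744759-74794523, minus strand), the gene of betacellulin, had 0, 3 and 0 reads in shCtrl and 6, 5 and 5 in shNFKBIZ libraries, a ratio of 5.62 (1.61 to 30.1). Of the BTC reads, 0 spanned an exon-exon junction in any library. A count of 0 allows a BTC level of up to 0.176 to 0.197 TPM, depending on the library. These intervals cover counting error only.

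Both remaining receptors were also low. ERBB2 (chr17:39687914-39730426, plus strand) had 9, 4 and 8 reads in shCtrl and 9, 13 and 7 in shNFKBIZ libraries, a ratio of 1.46 (exact 95% interval 0.802 to 2.69), and no difference was detectable at this depth. It overlaps PGAP3 (40 to 55 against 104 to 129 reads) and MIEN1 (621 to 635 against 396 to 420 reads), and reads were counted without strand. ERBB3 (chr12:56076799-56103505, plus strand), the neuregulin receptor with an impaired kinase, had 10, 8 and 6 reads in shCtrl and 1, 1 and 3 in shNFKBIZ libraries, a ratio of 0.22 (0.0654 to 0.587). It overlaps the gene ENSG00000257411 on the same strand, which held 310 to 593 and 321 to 438 reads, so that single reads of ERBB3 are uncertain in origin. When no filter on low counts was applied, 2 of the 9 genes were past the threshold, where 7.02% of 24781 genes were. These were BTC (log2FC 2.26, SE 0.857, adjusted P 0.0240, edgeR) and ERBB3 (-2.20, SE 0.683, adjusted P 0.00426, edgeR). At levels of at most 0.386 TPM for BTC and 0.137 TPM for ERBB3, both differences rest on a few reads.

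Of 6 family genes outside the 9, 5 were too low to be tested. ERBB4, the fourth receptor, had 10, 10 and 3 reads in shCtrl and 2, 3 and 2 in shNFKBIZ libraries. The ratio of its summed reads (23 and 7) was 0.321 (exact 95% interval 0.116 to 0.772). EGF, the founding ligand, had 4, 3 and 0 against 13, 11 and 6 reads, or 7 and 30 summed (4.52, 1.94 to 12.2). Both intervals cover counting error only and leave out the spread between libraries, so neither difference was tested. NRG2 had 21 and 29 summed reads, NRG3 0 and 6, and NRG4 3 and 2. EPGN, the gene of epigen, passed the filter with 92 and 67 summed reads and a log2FC of -0.47 (SE 0.278, edgeR adjusted P 0.143).

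EREG, AREG, BTC and EPGN lie together on chromosome 4, next to a cluster of CXC chemokine genes. Within 1 Mb of the start of EREG, 39 genes were listed and 9 passed the filter on low counts. Of these, 5 were past the threshold and all 5 were lower in shNFKBIZ cells, where 5.12% of all genes tested were lower. They were the neutrophil chemokine genes CXCL8 (log2FC -2.32, SE 0.0660), CXCL3 (-2.12, SE 0.101), CXCL1 (-1.89, SE 0.112) and CXCL2 (-1.23, SE 0.0716), and the lncRNA gene ENSG00000289530 (-2.14, SE 0.424). EREG had the only positive value of the 9, and its start lies at 0 kb on this axis with CXCL2 at -268.1 kb. MTHFD2L, a mitochondrial folate enzyme gene between CXCL2 and EPGN, had -0.32 (SE 0.0622, adjusted P 0.000123, edgeR) and AFP -0.33 (SE 0.322, adjusted P 0.380, edgeR). On the other side of EREG, AREG at 80.0 kb and BTC at 379.6 kb were too low to be tested.

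**Figure D4:**
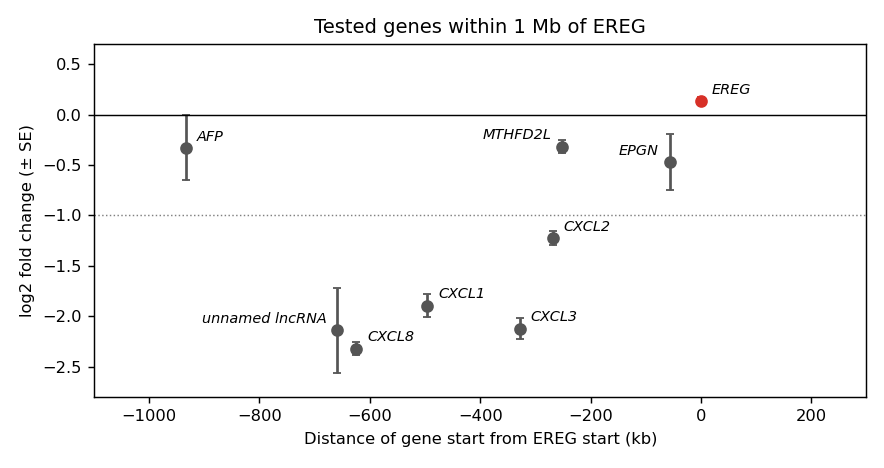
Log2 fold change (± SE, n = 3 per group) of the 9 tested genes within 1 Mb of EREG, against the distance of their start from that of EREG in kb, with a dotted line at a 2-fold decrease. EREG lies at 0.14, and 5 genes on one side of it lie below the line, from -1.23 to -2.32.

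Genes that act on the ligands and receptors were read from 6 lists with 80 tested genes in all. Of these, 8 were past the 2-fold threshold, where 8.96% of all genes tested were, which is near the background. Of 16 genes of ligand release and trafficking, 13 were tested, of which 4 were higher and 6 lower on P alone (32.5% and 32.8% of all genes tested), with a median log2FC of -0.10. Only CD9, a tetraspanin that binds the HB-EGF precursor, was past the 2-fold threshold, at -1.60 (SE 0.191, 2.02 ± 0.105 against 0.703 ± 0.0410 TPM). The genes called on P alone are named here after their values were seen. The sheddase genes ADAM17 (-0.33, SE 0.0367) and ADAM10 (-0.94, SE 0.0390) were lower. So were ADAM19 (-0.69, SE 0.0334), NRDC (-0.52, SE 0.0369) and ADAM9 (-0.15, SE 0.0348). In the other direction, the protease genes BACE1 (0.79, SE 0.0760) and ADAM12 (0.48, SE 0.126) and the metalloprotease inhibitor gene TIMP1 (0.44, SE 0.0414) were higher, as was RHBDF1 (0.32, SE 0.0784). With library size alone as scaling the list held 5 higher and 5 lower genes, where 40.9% of all genes tested were higher and 26.4% lower.

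Of 14 adaptor and signal relay genes, 13 were tested, 4 were higher, 8 were lower and 0 were past the 2-fold threshold (median -0.15), beside 32.5%, 32.8% and 8.96% of all genes tested. With library size alone the adaptors were 5 higher and 5 lower. Of 14 genes of receptor endocytosis and sorting, 14 were tested, 3 were higher, 7 were lower and 0 were past the threshold (median -0.09), beside the same shares, and library size alone gave 6 and 6. In both lists the split between higher and lower genes moved with the scaling.

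Of 20 genes that attenuate receptor signaling, 18 were tested, of which 2 were higher and 11 lower (median -0.22), beside 32.5% and 32.8% of all genes tested. With library size alone 4 were higher and 10 lower, beside 40.9% and 26.4% of all genes tested. Past the threshold were SPRY4, an inhibitor of the RAS-MAPK pathway that the pathway itself induces, at 1.25 (SE 0.0514, 21.1 ± 1.20 against 53.1 ± 2.90 TPM), and the receptor phosphatase gene PTPRJ at -1.46 (SE 0.0453, 47.7 ± 1.87 against 18.3 ± 0.566 TPM). The ubiquitin ligase genes CBL and CBLB, which mark EGFR for degradation, had -0.64 (SE 0.0380) and -0.88 (SE 0.0656), while the receptor phosphatase gene PTPRK had 0.71 (SE 0.0376). CBL, CBLB, PTPRK and ERRFI1 were named after their values were seen. ERRFI1, a direct inhibitor of the EGFR kinase, had 0.07 (SE 0.0406, adjusted P 0.141, edgeR).

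Early response genes of receptor signaling went both ways. Of 15 genes, 13 were tested, 5 were higher and 6 lower (median 0.08), beside 32.5% and 32.8% of all genes tested. Past the threshold were the cyclin gene CCND1 at 1.16 (SE 0.0353, 482 ± 24.4 against 1139 ± 10.4 TPM) and IER3, a gene also known as an NF-κB target, at -1.86 (SE 0.0385, 629 ± 6.75 against 183 ± 9.48 TPM). Of 10 other receptors that cooperate with the family, 9 were tested, 4 were higher and 3 lower (median -0.08), beside the same shares. The hepatocyte growth factor receptor gene MET was at -1.33 (SE 0.0431, 66.6 ± 1.27 against 27.9 ± 1.002 TPM), the protease-activated receptor gene F2RL1 at -1.58 (SE 0.0635), and the estrogen-binding receptor gene GPER1 at 1.64 (SE 0.334) with 29 against 92 summed reads. MET and EGFR, both receptor tyrosine kinase genes, thus changed in opposite directions in the same libraries, although EGFR was not past the 2-fold threshold. In the same list AXL had 0.17 (SE 0.0430, adjusted P 0.00205, edgeR) and IGF1R -0.08 (SE 0.0389, adjusted P 0.0654, edgeR). AXL and IGF1R were named after their values were seen.

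**Figure D5:**
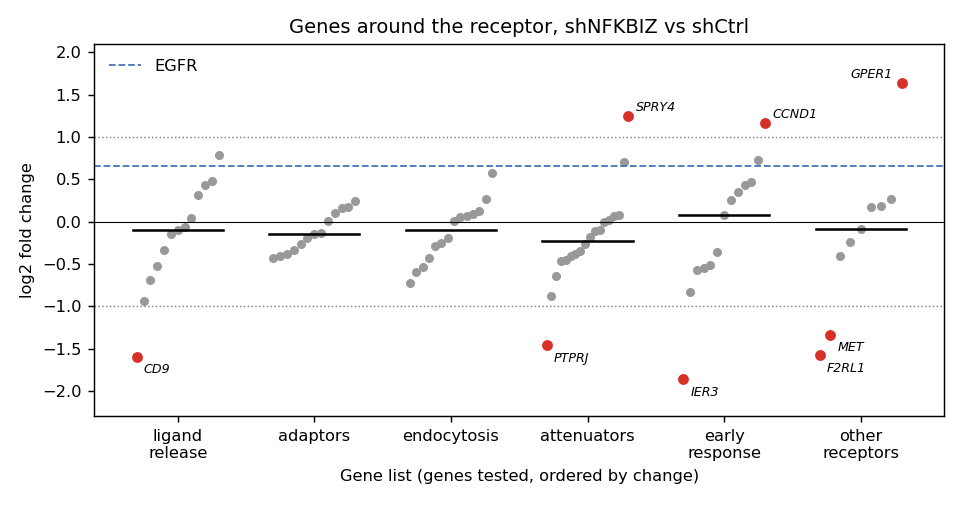
Log2 fold change of the tested genes of 6 lists around the receptor (points ordered by value, list median as a line; red and named, past the 2-fold threshold; dashed line, EGFR). In 5 of the 6 lists the median lies between -0.22 and -0.08, and 8 of the 80 genes are past the threshold, 3 higher and 5 lower, where 8.96% of all genes tested were.

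Markers of other cell types were measured beside these results. Of 6 leukocyte markers, 5 stayed under 1 TPM, with CD3E at 0 reads and PTPRC at 1 and 2 summed reads, and the summed level of 96.6 to 100.2 against 198 to 199.7 TPM was nearly all CD68, a lysosomal gene. Of 5 fibroblast markers, 3 were tested, and all 5 summed to 32.2 to 35.0 against 19.2 to 21.6 TPM. COL1A1 (log2FC -1.89) fell and PDGFRA (2.06) rose, while COL1A2 (-3.85, SE 0.556) fell on 48 against 3 summed reads, below 1 TPM. All 3 were past the 2-fold threshold, where 8.96% of all genes tested were. DCN and LUM stayed at 7 and 1 summed reads in shCtrl and 0 in shNFKBIZ cells. Epithelial markers summed to at most 1.85 TPM, with KRT14 past the threshold at 1.37 (24 against 63 summed reads), and endothelial markers to at most 0.954 TPM, with KDR at -0.05 (adjusted P 0.872, edgeR). The part of any of these in the values of the EGF family was not tested.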

How the data were processed

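RNA-seq libraries of 3 shCtrl and 3 shNFKBIZ samples were grouped by their titles. The authors mapped reads to hg38 with CLC Genomics Workbench under default settings, without using strand, and deposited whole-number read counts per gene for each library. Total exon reads were tested. TPM were recomputed from these counts and exon length.

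Genes were filtered with filterByExpr, scaled with TMM factors and tested in edgeR 4.0.16 under R 4.3.3 by the quasi-likelihood method with robust dispersion, two-sided and without a replicate block. P values were adjusted after Benjamini-Hochberg over 13843 genes. Standard errors were derived from the F statistic, as |log2FC| over its square root. Exon and intron changes were compared as an interaction with library blocks. Intervals for ratios of summed reads are exact 95% intervals, which cover counting error and not the spread between libraries. Low levels are read against a floor of 3 reads.

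The 9 genes, the lists and the tests were chosen with earlier results of these data known. Other genes were named where they were past the threshold, were family genes or cell type markers, overlapped a gene of the family, or lay near EREG. Further genes of the lists were named after their values were seen. These were ADAM9, ADAM10, ADAM12, ADAM17, ADAM19, NRDC, RHBDF1, BACE1, TIMP1, CBL, CBLB, PTPRK, ERRFI1, AXL and IGF1R. Genes with a similar pattern were to be named only for a gene of the family past the threshold, and 0 were. Alternatives tried were RLE factors, scaling by library size, other filters, the likelihood ratio test, DESeq2 1.42.0, unique reads, total gene reads, a replicate block, leaving out each library and other thresholds. Exon-exon reads were added after the data were seen. The fits were tested on simulated data. Within a group, every pair of libraries differed by more than sampling noise, with a chi-square over its degrees of freedom of 1.69 to 4.18.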

Additional observations from a re-analysis of the deposited data

How the results depend on the processing

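The counts of called genes depended mainly on the filter and on the threshold. Of the 9 EGF family genes, 0 were past the threshold, 2 were without a filter on low counts (BTC and ERBB3) and 2 without the fold limit (EGFR and EREG), and leaving out each library gave 0 each time. Over all genes, 1241 were past the threshold, 9039 without the fold limit and 555 when a difference of 4 TPM was also required, while leaving out each library gave 1315 to 1361. With library size alone, 668 genes were higher and 584 lower, against 532 and 709. The log2 fold change of EGFR kept its direction and call under all 16 alternatives (0.64 to 0.75), and so did that of EREG (0.11 to 0.31). HBEGF was called in 0 of 16 and NRG1 in 3 of 16. On the TPM scale the log2 ratio of the group means was 0.74 for EGFR and 0.22 for EREG, and on CPM with TMM factors 0.66 and 0.14. HBEGF was the 1 gene with differing exon and intron changes under all 8 alternatives. Deviations of libraries with the same number correlated only weakly (0.023, 0.0789 and 0.0334). With 3 libraries per group this does not settle whether the numbers pair them. With a replicate block 1244 genes were past the threshold, and NRG1 was the gene of the family whose call changed (adjusted P 0.0297, edgeR). For the interaction, exon and intron reads were fitted apart with a replicate block, which left HBEGF at -0.10 and 0.86. AREG, TGFA and ERBB2 were tested without the filter only, and were not called there.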
